A study of Mus musculus with 2 samples.

Results

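The respiratory chain genes described here are nuclear genes whose mouse symbols begin with Nduf followed by a, b, c, s or v, with Sdh followed by a to d, with Uqcr, with Cox followed by 4 to 8, or with Atp5. Of the 32285 genes in the matrices, 98 symbols matched, and the 94 with at least 200 UMIs (unique molecular identifiers, which count captured transcripts) over both libraries were kept. By their known roles, 37 are subunits of complex I and 8 are its assembly factors, 4 are subunits of complex II and 4 are its assembly factors, 8 belong to complex III, 16 to complex IV and 17 to complex V, so that 82 of the 94 are subunits. Ndufa4 and its relative Ndufa4l2 were placed in complex IV, of which NDUFA4 is now taken to be a subunit. The lowest sums kept were 337 UMIs for Ndufa4l2 and 476 for Cox7a1. The 4 left out were Cox7b2 with 45 UMIs, Cox6a2, the muscle form of its subunit, with 35, Cox8b with 2 and Cox8c with 0.

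The series holds 2 single-cell libraries, replicate 1 and replicate 2, of 1 group: wild-type mice whose cells were dated at embryonic day 12 (E12) with EdU, a thymidine analogue built into new DNA, and whose pallium, the dorsal forebrain, was dissected and pooled at postnatal day 3 (P3). Only EdU-positive, PI-negative cells among the brightest 10% were sorted. There is no treated or control group, so all comparisons are between classes of cells inside the same libraries. The labels do not say whether each library had its own pool of animals. A p-value here therefore sets a class difference against how unevenly such differences repeat in 2 libraries, and that spread may be technical.

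The respiratory chain sits in the inner mitochondrial membrane. Complex I (NADH dehydrogenase) and complex II (succinate dehydrogenase, also an enzyme of the citric acid cycle) pass electrons through ubiquinone to complex III (the cytochrome bc1 complex), and cytochrome c carries them to complex IV (cytochrome c oxidase), which reduces oxygen. Complexes I, III and IV pump protons, and complex V (ATP synthase) uses the gradient to make ATP. Mitochondrial DNA encodes a few core subunits of complexes I, III, IV and V, and the nucleus encodes the rest and all of complex II. Several complex IV subunits exist as tissue or condition isoforms. In the brain, neurons are known to lean on oxidative metabolism and astrocytes to have a high capacity for glycolysis.

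After filtering and removal of called doublets, 10366 and 10187 cells remained in replicates 1 and 2, with a median of 7273 and 8292 UMIs per cell. The 2 files shared 62 barcodes, 34 of them among the cells kept. Cells were put in classes by UMIs of 1 gene or pair, at least 3 of it, at most 1 of each other class and none of Mki67, a marker of cycling cells. This gave 90 and 96 C1qa cells (microglia express C1qa), 426 and 478 Gad1/Gad2 cells (GABAergic neurons), 746 and 818 Neurod2/Neurod6 cells (glutamatergic neurons), 967 and 975 Aqp4 cells (astroglia) and 2601 and 2690 Pdgfra cells (oligodendrocyte precursors, OPCs). Cells with at least 3 Mki67 UMIs, 1048 and 1142 of them, form the dividing class. Another marker went with the gate in C1qa and in Pdgfra cells. C1qa cells had 1294 and 1292 CPM of the microglial Cx3cr1, against at most 0.82 CPM in the 4 neural classes. Pdgfra cells had 2773 and 2750 CPM of Olig1, against 605.5 and 610.5 in Aqp4 cells. CPM here are a gene's UMIs divided by all UMIs of the class and scaled to the usual counts per 1000000. Slc17a7, the main cortical vesicular glutamate transporter, was near 0 in Neurod2/Neurod6 cells, at 4.0 and 4.4 CPM, and Gjb6, a connexin of mature astrocytes, reached only 2.8 and 2.3 CPM in Aqp4 cells. C1qa cells carried 26553 and 21315 CPM of the 8 astroglial markers, against 19104 and 17361 in Aqp4 cells, while Gjb6 of that list was at 0 in C1qa cells and Slc1a3 at 27.7 and 82.2 CPM, against 2927 and 3072 in Aqp4 cells. The list also holds Aqp4, Aldh1l1, Slc1a2, Gja1, Aldoc and Apoe, whose levels in C1qa cells are not given here. Gjb6 is too low in Aqp4 cells to tell the classes apart, and whether this class holds astroglial cells or RNA was not tested.

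The 4 sequences below are of members called lower in neurons and higher in Aqp4 cells (results follow). Each lies just upstream of the first annotated base in RefSeq, and they are shown because they belong to 3 different complexes and differ in the motifs they hold. They are the 250 bases before the start on the minus strand of GRCm38.p6, each written 5′ to 3′, and capitals mark a match to 1 of 4 motifs searched on both strands.
Sdhd, chr9:50603850-50604099: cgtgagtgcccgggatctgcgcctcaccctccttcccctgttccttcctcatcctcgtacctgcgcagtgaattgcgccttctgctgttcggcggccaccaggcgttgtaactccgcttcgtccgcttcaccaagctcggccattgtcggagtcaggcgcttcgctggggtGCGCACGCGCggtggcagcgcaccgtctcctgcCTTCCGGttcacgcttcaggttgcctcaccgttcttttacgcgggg
Uqcr10, chr11:4704345-4704594: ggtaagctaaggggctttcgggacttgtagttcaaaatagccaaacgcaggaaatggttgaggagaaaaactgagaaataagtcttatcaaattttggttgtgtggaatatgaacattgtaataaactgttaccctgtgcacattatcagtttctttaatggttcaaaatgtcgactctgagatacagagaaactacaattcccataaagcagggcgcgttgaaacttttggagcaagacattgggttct
Cox8a, chr19:7217617-7217866: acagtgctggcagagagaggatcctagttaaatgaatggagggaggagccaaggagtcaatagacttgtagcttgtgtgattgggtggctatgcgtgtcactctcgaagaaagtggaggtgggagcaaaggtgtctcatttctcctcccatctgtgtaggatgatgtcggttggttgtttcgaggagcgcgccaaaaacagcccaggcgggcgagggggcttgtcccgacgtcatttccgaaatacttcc
Cox6b2, chr7:4753095-4753344: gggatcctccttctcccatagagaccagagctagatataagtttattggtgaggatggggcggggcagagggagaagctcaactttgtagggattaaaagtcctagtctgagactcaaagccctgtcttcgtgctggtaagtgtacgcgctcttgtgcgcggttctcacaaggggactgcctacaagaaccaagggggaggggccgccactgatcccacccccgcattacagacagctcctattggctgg
The Sdhd window holds 1 NRF1 motif (GCGCA and GCGC with any 1 base between them, bound by the nuclear respiratory factor NRF1) and 1 ETS motif (CCGGAAG, in reverse complement here, as bound by GABP), and the Uqcr10, Cox8a and Cox6b2 windows shown hold none of the 4. Over windows of 250 bases before to 50 after the start, 79 of the 94 members had an entry in the table, among 27025 genes. The NRF1 motif occurred in 26.6% of the members' windows and 5.19% of all windows, the ETS motif in 27.8% and 9.93%, and the YY1 motif (AAGATGGC) in 13.9% and 3.19%. The core of the hypoxia response element (ACGTG) was in 24.1% of members' windows and 21.8% of all. Cox8a had 2 ETS matches in this longer window, neither of them wholly inside the 250 bases shown. The 27025 genes were not matched to the members for level or for CpG (a C followed by a G), which the NRF1 and ETS motifs contain. These are matches of letters, and binding was not measured.

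Summed over all subunits, respiratory chain transcripts made up the smallest share of the UMIs in C1qa cells and the largest in Aqp4 cells. The sum was 31429 ± 2075 CPM in Mki67 cells, 25853 ± 213 in C1qa cells, 30390 ± 1397 in Gad1/Gad2 cells, 28725 ± 1223 in Neurod2/Neurod6 cells, 33106 ± 1222 in Aqp4 cells and 31631 ± 1579 in Pdgfra cells (SD, n = 2). C1qa cells lay below every neural class in both libraries. Neighbours in this order, from Neurod2/Neurod6 to Gad1/Gad2, Mki67, Pdgfra and Aqp4 cells, overlapped between libraries, so the pooled ranges do not separate neighbours, while Neurod2/Neurod6 and Aqp4 cells did not overlap. Within a library, however, Aqp4 cells exceeded Pdgfra cells, and Gad1/Gad2 cells exceeded Neurod2/Neurod6 cells, in 2 of 2. Replicate 1 had the higher sum in the 5 neural and dividing classes and the lower sum in C1qa cells. The 13 mitochondrially encoded subunits ran the other way, higher in replicate 2 in all 6 classes, for example 30538 and 34427 CPM in Aqp4 cells. Ratios between classes were therefore taken inside each library.

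The complexes did not follow the total equally. Relative to its level, complex III had the widest spread of the 5 complexes among neural classes, with 3729 and 3584 CPM in Aqp4 cells against 3097 and 2913 in Pdgfra cells, a log2 ratio of 0.27 and 0.30, or 21.7% more. Complex I in the same comparison differed by 0.85%, complex IV by 4.72% and complex V by 3.38%. Neurons (the mean of Gad1/Gad2 and Neurod2/Neurod6 cells on the log2 scale) had less of each complex than macroglia (the mean of Aqp4 and Pdgfra cells), by log2 ratios of -0.30 for complex III, -0.29 for complex II, -0.16 for complex I, -0.10 for complex IV and -0.06 for complex V. For complexes IV and V this holds for the means and not for each pair of classes. In complex V, Gad1/Gad2 cells exceeded Neurod2/Neurod6 cells by 0.14 and Aqp4 cells exceeded Pdgfra cells by 0.05. Gad1/Gad2 cells thus did not lie below Pdgfra cells in complex V. In complex IV, where these 2 ratios were 0.12 and 0.07, they were nearly level. Complex II amounted to 424 and 416 CPM in Gad1/Gad2 cells and 420 and 420 in Neurod2/Neurod6 cells, against 509 and 545 in Aqp4 cells and 500 and 498 in Pdgfra cells, and the groups did not overlap. C1qa cells had 7781 and 7703 CPM of complex I, against 8900 to 10760 over the 4 neural classes. Relative to the mean of the neural classes, the change was -21.1% for complex I, -17.7% for complex IV, -14.0% for complex III, -11.2% for complex V and -6.27% for complex II, whose log2 ratios were -0.18 and -0.0075 in the 2 libraries. These sums are plain shares of UMIs with no test.

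**Figure D1:**
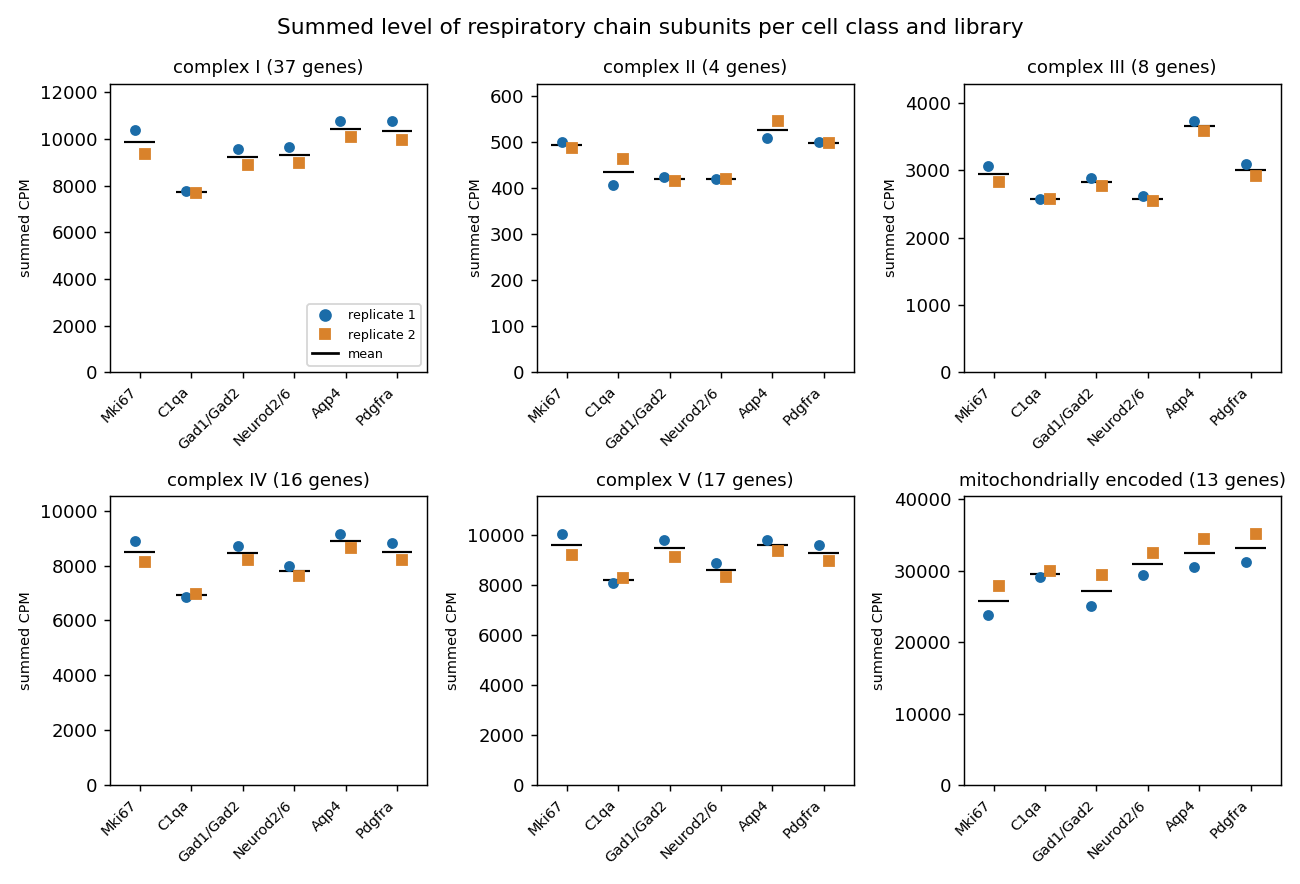
Summed CPM (y axis, from 0) of the nuclear subunits of each complex and of the 13 mitochondrially encoded subunits in 6 cell classes (x axis), with circles for replicate 1, squares for replicate 2 and a line at their mean. Complex III is highest in Aqp4 cells, at 3729 and 3584 CPM, and replicate 2 is above replicate 1 for the mitochondrially encoded genes in all 6 classes.

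Single genes were tested on counts summed per library and class, with edgeR's quasi-likelihood test over all genes (14208 in the model of the 5 classes, 13040 in that of dividing cells), TMM scaling, the library as a block and Benjamini-Hochberg adjustment at 0.05. TMM sets most genes near no change, whereas CPM are shares of the total, and the choice matters here. Relative to TMM, dividing by library totals moved the median of all genes by -0.19 (log2) for Aqp4 minus Pdgfra cells, by -0.48 for C1qa minus neural cells and by -0.11 for dividing minus non-dividing Gad1/Gad2 cells, and by less than 0.1 in the other contrasts. The distance of the members' median from that of all genes does not move with the scaling, and that distance or both medians stand with the counts. A scale factor shifts all genes alike, so this agreement between scalings is no check. Other choices moved the distance in some contrasts. With no filter on low counts it was 0.07 for neurons minus macroglia and 0.68 for C1qa minus neural cells. It was 0.004 for dividing cells on average in cells of 5000 to 15000 UMIs. With a gate of 2 UMIs it was 0.03 in dividing Gad1/Gad2 cells. Calls were also common among all genes, so the share called is given too. Most members have high counts, and in each contrast calls were commoner among tested genes of high level than among all. For Gad1/Gad2 minus Neurod2/Neurod6 cells, 28.7% of 3594 such genes were called higher and 24.9% lower. For dividing cells on average, 35% of 4275 were called higher and 29.1% lower. Ndufa4l2 failed the filter on low counts in the model of the 5 classes, leaving 93 members tested there, and the other 93 were tested in every model.

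Neurons had lower levels of most subunits of complexes I, II and III than macroglia, while complexes IV and V held members that were lower and members that were higher. Of 93 members, 19 were called higher and 49 lower, against 33.8% and 38.4% of all tested genes called higher and lower. The members' median log2 fold change was -0.12, against -0.06 for all genes. In complex II, the 3 subunits Sdhd, Sdha and Sdhc were lower, and Sdhb, the iron-sulfur subunit, was not called (0.02 ± 0.04, edgeR adjusted p = 0.724). Sdhd, a membrane anchor, had 46.1 and 54.3 CPM in Gad1/Gad2 cells and 49.6 and 46.0 in Neurod2/Neurod6 cells, against 79.9 and 92.2 in Aqp4 cells and 69.1 and 69.5 in Pdgfra cells. All 4 neuronal values lie below all 4 macroglial ones, with a log2 fold change of -0.64 ± 0.06 (SE, edgeR adjusted p = 1.43e-15). Sdha, the flavoprotein that oxidises succinate, was lower by a log2 fold change of -0.52 ± 0.05.

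In complex III, 5 of 8 members were lower, with a median of -0.41 over the 8. Uqcr10, a small subunit, had 349 and 317 CPM in Gad1/Gad2 cells and 327 and 303 in Neurod2/Neurod6 cells, against 613 and 588 in Aqp4 cells and 409 and 377 in Pdgfra cells. All neuronal values lie below all macroglial ones, and the log2 fold change was -0.57 ± 0.03 (edgeR adjusted p = 9.58e-28). Uqcrq, Uqcrb, Uqcr11 and the core protein gene Uqcrc1 were also lower, by log2 fold changes of -0.51, -0.49, -0.48 and -0.34. The hinge protein gene Uqcrh was higher (0.14 ± 0.03), and Uqcrfs1, the Rieske iron-sulfur protein, and Uqcrc2 were not called at -0.03 and 0.04.

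In complex I, 23 of 37 subunits were lower and 6 higher. The lowest was Ndufs8, an iron-sulfur subunit, with 96.4 and 90.3 CPM in Gad1/Gad2 cells and 118 and 122 in Neurod2/Neurod6 cells, against 187 and 181 in Aqp4 cells and 183 and 170 in Pdgfra cells. Its log2 fold change was -0.74 ± 0.04 (edgeR adjusted p = 7.63e-25). The small subunit Ndufa1 followed at -0.56 ± 0.04. Ndufs4, known for the Leigh-like disease of mice that lack it, was higher in neurons by 0.33 ± 0.03, and Ndufv3 by 0.30 ± 0.03. The core subunits Ndufs1 and Ndufv1 were not called, at -0.10 and 0.03. Of the 8 complex I assembly factors, Ndufaf3, Ndufaf5 and Ndufaf7 were higher and Ndufaf4 and Ndufaf8 lower.

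In complex V, 7 of 17 subunits were lower and 5 higher, and the median was -0.03. Atp5g2, 1 of 3 genes for the same mature c subunit of the rotor, was lower at -0.37 ± 0.03, whereas its paralogue Atp5g1 was higher at 0.20 and Atp5g3 was not called at -0.05. Atp5b, the catalytic beta subunit, was lower at -0.27 ± 0.03. Atp5md, a small membrane subunit, was higher at 0.36 ± 0.03.

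**Figure D2:**
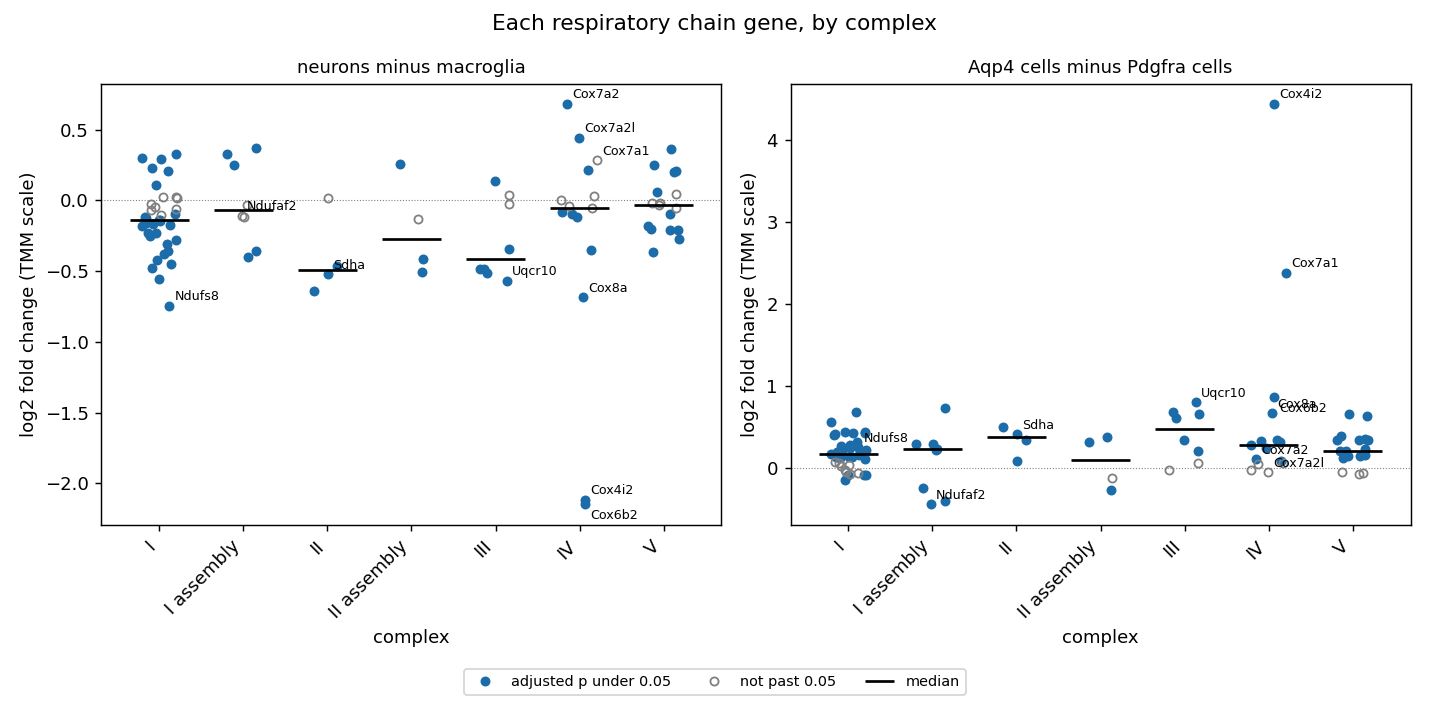
Log2 fold change on the TMM scale (y axis, a separate range in each panel) of each tested member by complex (x axis), for neurons minus macroglia on the left and Aqp4 minus Pdgfra cells on the right. Filled points passed an adjusted p of 0.05, open points did not, and lines are medians; Cox4i2 stands at 4.44 on the right and at -2.12 on the left.

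Complex IV held the members furthest from the rest. Neurons had more Cox7a2 (chr9:79755361-79759878, minus strand of mm10), the common (liver-type) form of subunit 7a, at 792 and 774 CPM in Gad1/Gad2 cells and 732 and 719 in Neurod2/Neurod6 cells, against 480 and 446 in Aqp4 cells and 494 and 482 in Pdgfra cells. All neuronal values lie above all macroglial ones, with a log2 fold change of 0.68 ± 0.03 (edgeR adjusted p = 7.22e-36). Cox7a2l, a related protein that takes part in supercomplex assembly, was higher in neurons by 0.45 ± 0.03. Cox8a, the ubiquitous form of subunit 8, ran the other way, at 895 and 822 CPM in Gad1/Gad2 cells and 865 and 785 in Neurod2/Neurod6 cells, against 1679 and 1557 in Aqp4 cells and 1213 and 1111 in Pdgfra cells. Its log2 fold change was -0.69 ± 0.03 (edgeR adjusted p = 2.03e-37). Cox4i1, the common form of subunit 4, was not called (0.00 ± 0.02), at 1017 to 1155 CPM over the 4 classes. Of the core regulatory subunits, Cox5a was higher in neurons by 0.22 and Cox5b was not called at -0.05, and Cox6a1, the non-muscle form of subunit 6a, was lower by a log2 fold change of -0.10.

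Cox6b2, known as the testis form of subunit 6b, was low but graded. It had 2.86 and 2.33 CPM in Gad1/Gad2 cells and 2.10 and 3.87 in Neurod2/Neurod6 cells, against 14.9 and 17.1 in Aqp4 cells and 10.5 and 9.68 in Pdgfra cells. The groups did not overlap, and the log2 fold change was -2.15 ± 0.19 (edgeR adjusted p = 2.89e-16). Cells with a Cox6b2 UMI made up 10.7% and 13.3% of Aqp4 cells (exact Clopper-Pearson 95% intervals 8.78 to 12.8 and 11.3 to 15.6), against 1.34% and 2.57% of Neurod2/Neurod6 cells, whose median depths were 6305 and 7027 UMIs, against 8749 and 9646 in Aqp4 cells. Intervals and limits cover counting error only. The common paralogue Cox6b1 was not called between neurons and macroglia, at -0.04.

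Cox4i2 (chr2:152754173-152765037, plus strand of mm10) is the isoform of subunit 4 known to be raised by low oxygen and expressed in lung and in mural cells of vessels. It had 16.4 and 14.1 CPM in Aqp4 cells, from 135 and 131 UMIs, against 0.92 and 0.66 in Pdgfra cells, from 19 and 16 UMIs. The log2 fold change was 4.44 ± 0.22 (edgeR adjusted p = 3.44e-29), beyond the whole spread between libraries. In the other classes it stood at 1.98 and 1.47 CPM (C1qa cells), 0.82 and 1.00 (Gad1/Gad2 cells) and 0.84 and 0.51 (Neurod2/Neurod6 cells). Its log2 fold change of -2.12 between neurons and macroglia thus rests on Aqp4 cells, since Pdgfra cells were as low as neurons. A Cox4i2 UMI was found in 106 of 967 and 106 of 975 Aqp4 cells (exact 95% intervals of the share 9.06% to 13.1% and 8.99% to 13.0%) and in 0.536% and 0.367% of Neurod2/Neurod6 cells, taken as the background, with median depths as for Cox6b2. The 7 mural and fibroblast markers summed to 42.7 and 46.6 CPM in Aqp4 cells, against 13.2 and 24.3 in Pdgfra cells, of which Pdgfrb gave 28.7 and 27.1 in Aqp4 cells and Kcnj8 was at 0.12 and 0. In the 577 and 570 Aqp4 cells without a UMI of any mural, fibroblast or endothelial marker, Cox4i2 was at 16.1 and 11.3 CPM.

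Cox7a1, the heart and muscle form of subunit 7a, was low in all classes, at 4.94 and 8.07 CPM in C1qa cells and 4.61 and 3.67 in Aqp4 cells, against 0.63 and 1.12 in Pdgfra cells. Gad1/Gad2 cells had 1.63 and 2.67 CPM and Neurod2/Neurod6 cells 2.94 and 2.02. The log2 fold change was 2.38 ± 0.33 for Aqp4 minus Pdgfra cells (edgeR adjusted p = 2.17e-09). For C1qa minus neural cells it was 2.14 ± 0.53, from 5 and 11 UMIs in C1qa cells, and -0.08 when cells were gated on marker lists instead, which leaves 11 and 21 C1qa cells. Ndufa4l2, known as a hypoxia-induced relative of Ndufa4, had 0.41 to 2.79 CPM over the neural classes and no UMI in C1qa cells, where 0 of 90 and 0 of 96 cells allow a share of up to 3.33% and 3.13%.

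**Figure D3:**
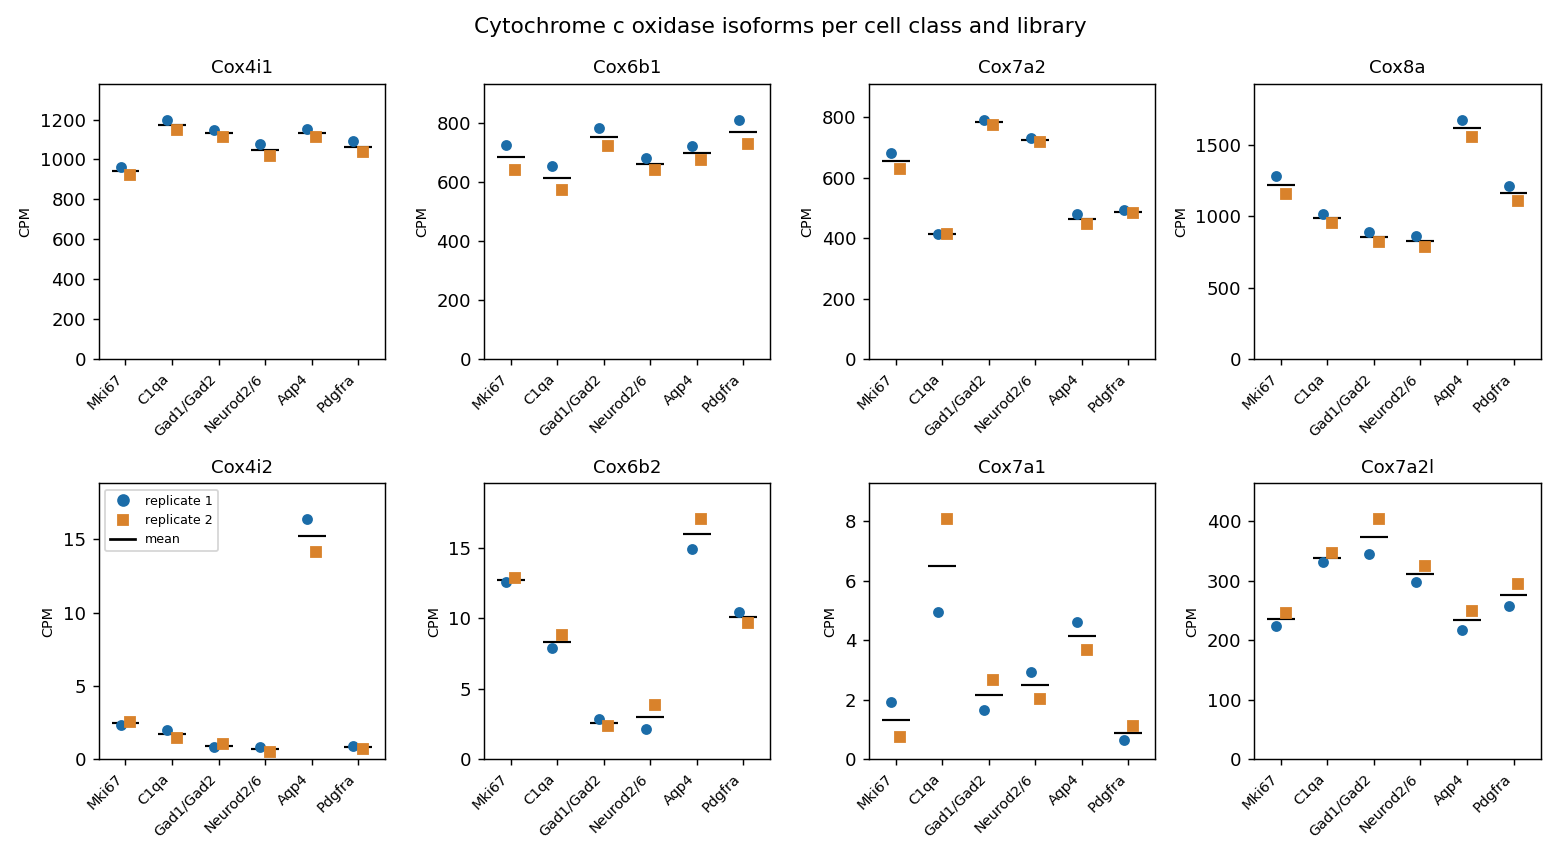
CPM (y axis, from 0, a separate range in each panel) of 8 genes of cytochrome c oxidase isoforms in 6 cell classes, circles for replicate 1, squares for replicate 2 and lines for their mean. Cox4i2 stands at 16.4 and 14.1 CPM in Aqp4 cells and at 2.55 or less in the other 5 classes.

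Between the macroglial classes, Aqp4 cells had higher levels of complex III, Cox8a and several small subunits of complexes I and V than Pdgfra cells, relative to other genes. Of 93 members, 67 were called higher and 8 lower, against 33.1% and 34.1% of all tested genes. By library totals the split was 35 higher and 30 lower, and with marker lists as gates 52 and 19. The members' median lay 0.24 above that of all genes under either scaling (0.22 and -0.02 with TMM). In complex III, 6 of 8 were higher: Uqcr10 by 0.81 ± 0.03, Uqcr11 by 0.69, Uqcrfs1 by 0.67, Uqcrq by 0.61, Uqcrh by 0.35 and Uqcrc1 by 0.21, which was 0.01 by library totals. Uqcr10 is the same gene whose CPM are given above, 613 and 588 in Aqp4 cells against 409 and 377 in Pdgfra cells (edgeR adjusted p = 4.74e-35). Uqcrb and Uqcrc2 were not called, at -0.01 and 0.07.

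All 4 subunits of complex II were called higher in Aqp4 cells, from 0.09 for Sdhb, which was -0.11 by library totals, to 0.51 ± 0.05 for Sdhd. Ndufc2, a complex I membrane-arm subunit, had 661 and 631 CPM in Aqp4 cells, against 482 and 438 in Pdgfra cells, with no overlap (log2 fold change 0.68 ± 0.03). Atp5o, the stalk subunit OSCP, had 630 and 593 CPM in Aqp4 cells, against 450 and 432 in Pdgfra cells (0.66 ± 0.03). Atp5d, the delta subunit, was higher by 0.64 ± 0.03, and Cox8a by 0.67 ± 0.03. The other subunits of the catalytic core moved less: Atp5b was higher by 0.34 and Atp5a1, the alpha subunit, was not called at -0.06. Of the assembly factors, 7 of 12 were higher and 4 lower, with Ndufaf2 lower at -0.44 ± 0.05 and Ndufaf5, Ndufaf7 and the complex II factor Sdhaf3 lower at -0.39, -0.23 and -0.27, while Ndufaf8 was higher at 0.74 ± 0.07. Ndufaf2 had 71.0 and 56.7 CPM in Aqp4 cells, against 103 and 93.7 in Pdgfra cells.

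For C1qa cells, the direction of most members depended on the scaling. With TMM, 47 of 93 were called higher and 11 lower than in the mean of the 4 neural classes, against 30% and 32.4% of all tested genes. By library totals, 14 were higher and 65 lower. The members' median lay 0.38 above that of all genes in both. A few members were higher under both scalings. Ndufaf8, a complex I assembly factor, had 79.1 and 88.0 CPM in C1qa cells, against 49.0 and 36.7 in Gad1/Gad2 cells, 50.0 and 41.6 in Neurod2/Neurod6 cells, 70.1 and 67.8 in Aqp4 cells and 49.7 and 44.9 in Pdgfra cells. Both C1qa values lie above all 8 others, and the log2 fold change was 1.24 ± 0.13 (edgeR adjusted p = 6.24e-14). Ndufa9, a complex I subunit near the matrix arm, had 130 and 117 CPM in C1qa cells, against 82.2 to 104 in the neural classes (0.92 ± 0.10). Ndufaf2, Ndufaf4 and Ndufaf6 were lower at -0.73, -0.67 and -0.65, and Ndufa4 at -0.34 ± 0.05, with 519 and 579 CPM in C1qa cells, against 885 to 1144 in the neural classes. C1qa cells were the deepest class, with a median of 11323 and 13744 UMIs, and with cells of 5000 to 15000 UMIs only the split was 28 higher and 18 lower. With marker lists as gates, which keep only 11 and 21 C1qa cells, it was 23 and 12. The part of depth in this comparison was not tested.

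Between the neuronal classes, differences were smaller and mostly in complexes III, IV and V. Although none had a Mki67 UMI, Gad1/Gad2 cells held 320 and 199 CPM of the 8 dividing markers, against 79.3 and 71.6 in Neurod2/Neurod6 cells. The Gad1/Gad2 class therefore is not made of resting neurons alone. With cells holding Top2a, Ube2c or Cdk1 removed, the members' median lay 0.09 above that of all genes. The part of cycling cells in the single-gene differences was not tested. Of 93 members, 37 were called higher and 5 lower in Gad1/Gad2 than in Neurod2/Neurod6 cells, against 16.8% and 19.3% of all tested genes. By library totals 22 were higher and 10 lower, and the members' median lay 0.11 above that of all genes under both scalings. Atp5g2 had 762 and 726 CPM in Gad1/Gad2 cells, against 574 and 564 in Neurod2/Neurod6 cells (0.45 ± 0.04, edgeR adjusted p = 2.69e-14). Atp5b had 648 and 577 CPM in Gad1/Gad2 cells, against 500 and 458 in Neurod2/Neurod6 cells (0.42 ± 0.05). The groups do not overlap for either gene. Atp5mpl, a small ATP synthase subunit, Cox6c and Uqcrfs1 were higher by 0.40, 0.36 and 0.36. The 5 lower were Ndufaf6, Sdhaf4, Ndufs8, Ndufa13 and Ndufs7, and for Ndufs8 the values were 96.4 and 90.3 CPM, against 118 and 122. The 4 complex II subunits had log2 fold changes of 0.04 to 0.15, with edgeR adjusted p-values of 0.332 to 0.826. Without the library as a block, 16 members were higher and 2 lower.

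**Figure D4:**
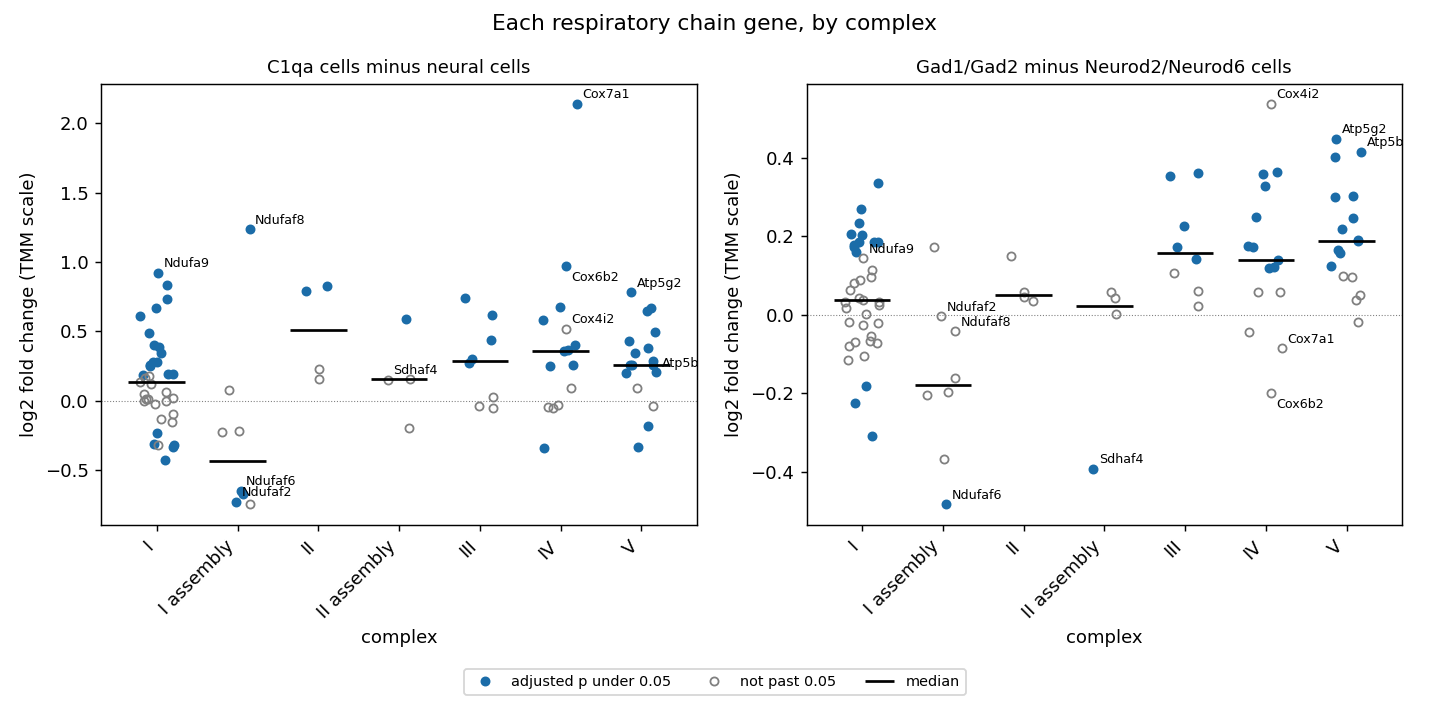
Log2 fold change on the TMM scale (y axis, a separate range in each panel) of each tested member by complex (x axis), for C1qa minus neural cells on the left and Gad1/Gad2 minus Neurod2/Neurod6 cells on the right. Filled points passed an adjusted p of 0.05, open points did not, and lines are medians; Ndufaf8 stands at 1.24 on the left and Atp5g2 at 0.45 on the right.

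Dividing cells were compared with non-dividing cells of the same class: 210 and 269 dividing Gad1/Gad2 cells, 79 and 81 dividing Aqp4 cells and 318 and 370 dividing Pdgfra cells. Their summed nuclear subunits stayed within 10% of the non-dividing cells in each lineage: -9.49% in Gad1/Gad2 cells, 2.67% in Aqp4 cells and -1.33% in Pdgfra cells. Averaged over the 3 lineages, 23 of 94 members were called higher and 24 lower, against 23.5% and 23.8% of all tested genes. By library totals 14 were higher and 37 lower, and with DESeq2's size factors 16 and 34. The members' median lay 0.05 above that of all genes in all 3. Dividing cells were deeper, with medians of 10869 and 11459 UMIs in dividing Gad1/Gad2 cells, against 5634 and 5915 in non-dividing ones, and with cells of 5000 to 15000 UMIs only 5 members were higher and 43 lower. In replicate 2, dividing Aqp4 cells also held 109 CPM of the 8 microglial and 142 of the 6 endothelial markers, against 6.65 and 22.4 CPM in replicate 1.

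Some members kept their direction on average under library totals, DESeq2's size factors, the gate of 5 UMIs and the depth window. Atp5g2 had 947 and 870 CPM in dividing Gad1/Gad2 cells, against 762 and 726 in non-dividing ones. It had 1000.5 and 902 CPM in dividing Aqp4 cells, against 792 and 771, and 1086 and 1012 CPM in dividing Pdgfra cells, against 949 and 900. In each lineage both dividing values exceed both non-dividing ones, and the mean log2 fold change was 0.31 ± 0.03 (edgeR adjusted p = 4.26e-17). Ndufab1, the mitochondrial acyl carrier protein, which also serves lipoic acid synthesis, was higher by 0.28 ± 0.04 on average, and Cox7a2 by 0.26 ± 0.03. Ndufv3 was lower at -0.30 ± 0.04, with 221 and 197 CPM in dividing Gad1/Gad2 cells, against 274 and 260 in non-dividing ones, and it was lower in the other two as well. Ndufb2, a complex I subunit, and Sdhaf1, a complex II assembly factor, were lower at -0.26 and -0.25. Cox5a, at 0.17, is an exception, with -0.0099 in cells of 5000 to 15000 UMIs. Cox4i1 was lower at -0.15 ± 0.02 and the assembly factor Ndufaf1 at -0.57 ± 0.12.

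By lineage, 11 members were higher and 20 lower in dividing Gad1/Gad2 cells, against 18.6% and 15.4% of all tested genes. In dividing Aqp4 cells 30 were higher and 10 lower, against 17.6% and 13.6%, and in dividing Pdgfra cells 16 and 23, against 19.3% and 23.2%. The members' median lay -0.05, 0.12 and 0.04 from that of all genes in Gad1/Gad2, Aqp4 and Pdgfra cells. These splits are not firm. By library totals they were 6 and 42 in Gad1/Gad2 cells, 16 and 12 in Aqp4 cells and 13 and 28 in Pdgfra cells. In cells of 5000 to 15000 UMIs they were 4 and 52, 5 and 7, and 5 and 39 in the same order, and with DESeq2's size factors 7 and 33 in Gad1/Gad2 cells and 10 and 18 in Aqp4 cells. The difference between the division effects of Gad1/Gad2 and Pdgfra cells was called for 14 members, 6 higher and 8 lower. Of all tested genes, 7.25% and 6.83% were called, so the share of members called is near that of all genes. Among tested genes of high level the shares were larger, at 13.5% higher and 9.99% lower. The median of the 94 members tested lay -0.04 from that of all genes. By library totals the split was 2 and 21, with DESeq2 1 and 11, and with DESeq2's size factors in edgeR 4 and 14.

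The sum of the 13 mitochondrially encoded subunits was lower in dividing cells of each lineage. It was 21120 and 24965 CPM in dividing Gad1/Gad2 cells, against 24978 and 29330 in non-dividing ones. In Aqp4 cells it was 22504 and 27757 CPM in dividing cells, against 30538 and 34427, and in Pdgfra cells 27540 and 30389, against 31213 and 35114. The dividing value was below the non-dividing one of the same library in 6 of 6 pairs, by log2 ratios between -0.18 and -0.44. In the depth window the share of mitochondrial UMIs was also lower in dividing cells of each pair. In replicate 1 it was 2.37% against 2.75% in Aqp4 cells, 2.09% against 2.27% in Gad1/Gad2 cells and 2.67% against 2.82% in Pdgfra cells. Replicate 2 gave 2.92% against 3.31%, 2.48% against 2.78% and 2.91% against 3.36%. The relative gap was smaller than in cells of all depths, though hardly so in Pdgfra cells of replicate 2. The part of depth was not tested. Averaged over lineages, edgeR called 12 of the 13 lower, against 23.8% of all tested genes, with a median of -0.21. By lineage, 4 were called lower in dividing Gad1/Gad2 cells, 12 in Aqp4 cells and 10 in Pdgfra cells, with medians of -0.09, -0.36 and -0.19. In Gad1/Gad2 cells mt-Nd5 and mt-Co1 were at 0.03 and not called. The nuclear members' medians were -0.06 in Gad1/Gad2 cells, 0.10 in Aqp4 cells and -0.03 in Pdgfra cells. The difference between nuclear and mitochondrial genes was not tested, and cells were filtered at 10% mitochondrial UMIs, which caps this measure in all classes.

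**Figure D5:**
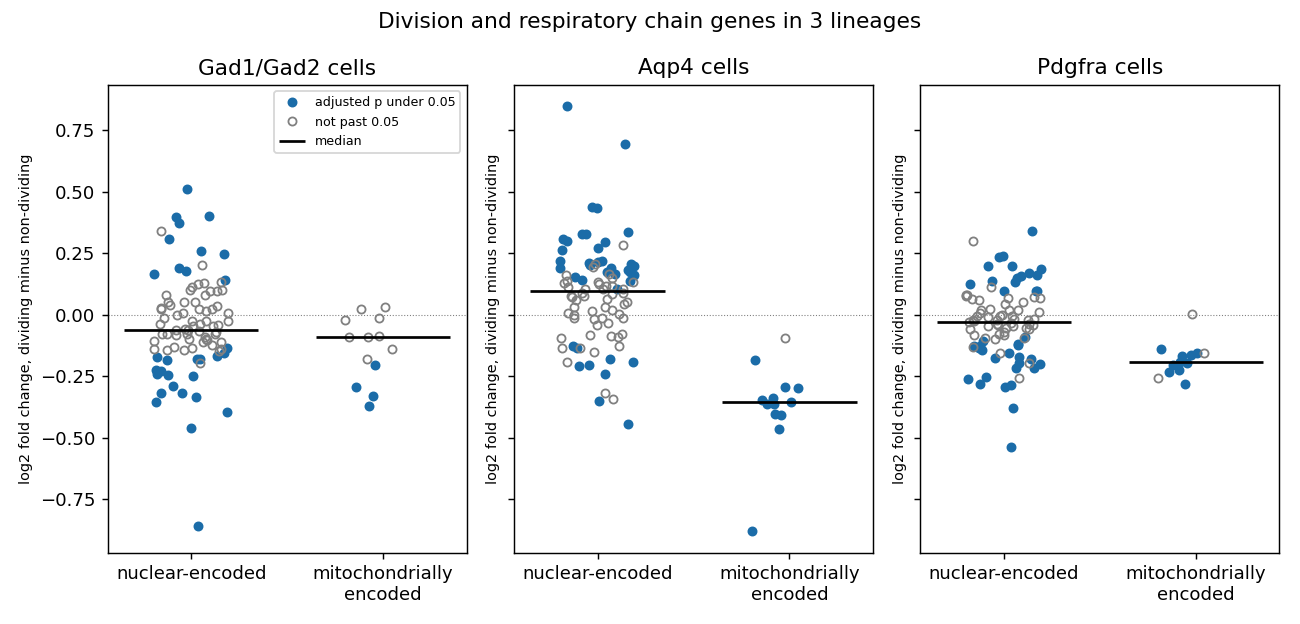
Log2 fold change on the TMM scale, dividing minus non-dividing cells (y axis), of nuclear-encoded and mitochondrially encoded respiratory chain genes in 3 lineages, each point a gene, filled where the adjusted p was under 0.05, with lines at the medians over all genes tested. The low nuclear genes Cox4i2, Cox7a1 and Ndufa4l2 are not drawn but count in the medians; mitochondrially encoded genes sit mostly below 0, with medians of -0.09, -0.36 and -0.19 in Gad1/Gad2, Aqp4 and Pdgfra cells.

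The sum of 21 glycolytic genes had a log2 ratio of -0.79 for neurons minus macroglia and 0.92 for Aqp4 minus Pdgfra cells, further from 0 than any of the 5 complexes in those 2 comparisons. For Gad1/Gad2 minus Neurod2/Neurod6 cells it was -0.012, nearer to 0 than complexes III, IV and V. Summed glycolytic genes stood at 2873 and 2575 CPM in Gad1/Gad2 cells and 2900 and 2594 in Neurod2/Neurod6 cells, against 6641 and 6361 in Aqp4 cells and 3516 and 3375 in Pdgfra cells. Of 21 tested, 15 were lower and 1 higher in neurons than in macroglia, with a median of -0.56, against 38.4% of all tested genes lower and 33.8% higher. Their median in Aqp4 minus Pdgfra cells was 0.67. There, 14 were higher, against 33.1% of all tested genes, and 4 lower, against 34.1%. Aldoc, an aldolase of astrocytes, had 1609 and 1587 CPM in Aqp4 cells, against 130 and 126 in Pdgfra cells, and Hk2, a hexokinase, 53.2 and 40.4, against 8.74 and 6.64. Of 18 genes of the citric acid cycle, 14 were higher in Aqp4 than in Pdgfra cells, against the same 33.1%. Pcx, pyruvate carboxylase, had 122 and 123 CPM in Aqp4 cells, against 10.5 and 12.6 in Pdgfra cells. Of 19 electron carriers and nucleotide exchangers, 13 were lower and 2 higher in neurons, against the same 38.4% and 33.8%. Slc25a5, an ADP/ATP translocase, had 344 and 311 CPM in Gad1/Gad2 cells and 242 and 218 in Neurod2/Neurod6 cells, against 815 and 803 in Aqp4 cells and 700 and 678 in Pdgfra cells.

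Among 14 tested regulators of mitochondrial biogenesis, 4 were higher and 6 lower in neurons than in macroglia, against 33.8% and 38.4% of all tested genes. The counts for neurons given next stand against the same shares. Ppargc1a, the coactivator PGC-1 alpha, had 51.2 and 61.3 CPM in Aqp4 cells, against 10.3 and 13.0 in Pdgfra cells (2.46 ± 0.09), and 4.20 and 3.71 CPM in Neurod2/Neurod6 cells. Its relative Ppargc1b went the other way in Aqp4 minus Pdgfra cells, at -2.80 ± 0.33. Of 37 tested assembly factors whose symbols lie outside those above, 14 were higher and 14 lower in neurons, among them Cox10, a heme A synthesis enzyme for complex IV, at -1.50 ± 0.10. Mitochondrial ribosomal proteins split as evenly, with 25 of 78 higher and 28 lower, and of 19 protein import genes 5 were higher and 8 lower. Cox20, a complex IV assembly factor, had 221 and 193 CPM in Gad1/Gad2 cells, against 120 and 117 in Neurod2/Neurod6 cells (0.86 ± 0.07).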

How the data were processed

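The deposited matrices hold UMI counts per gene and barcode, made by the authors with Cell Ranger 6.0.2, per the file headers, on mm10, per the submitters' processing notes, which also name R 4.1.0 and Seurat 4.1.0. The annotation release was not given in the sources used here. The libraries held 97091962 and 108903409 UMIs in 13858 and 14513 barcodes. Barcodes with under 500 genes (441 and 657) or over 10% mitochondrial UMIs (2189 and 2891) were dropped, and Scrublet (scanpy 1.11.5) marked 862 and 778 doublets, which were removed. For each class in each library, UMI counts were added up and tested with edgeR 4.0.16 (R 4.3.3). Genes passed filterByExpr, scaling was TMM, and the library was a block. The block follows from the design, because the classes of 1 library were sorted and captured together. The fits had 4 and 5 residual degrees of freedom. DESeq2 1.42.0, other scalings, gates, depth and filters were alternatives. Model recovery was tested on simulated data. Gene positions came from GENCODE M21 (mm10) and promoters from RefSeq GRCm38.p6.

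The members and gene lists were chosen with earlier results of these data known. Named genes were a fixed set of isoforms and core subunits, the 4 highest and 4 lowest called members with the same sign in both libraries per comparison, members at least 1 (log2) from the members' median, and the 2 pathway genes of each list furthest from 0, of which examples are given. From the fixed set, 1 gene is not reported here, though counts over all members include it. Other genes are named where a group is listed in full. Division by library totals was added after seeing the data. Reads shared with near-identical copies, such as pseudogenes of small subunits, may be lost in counting, so such levels are uncertain.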

Additional observations from a re-analysis of the deposited data

Results flagged for a closer look

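The effect of division differed between Gad1/Gad2 and Pdgfra cells by the interaction test of edgeR for 14.9% of the 94 members, against 14.1% of all tested genes. Among tested genes of high level, 13.5% were called above 0 and 9.99% below 0. The 11 that the naming rule covers are given first, with the 2 lineages' effects on the log2 scale given as Gad1/Gad2 cells first. The differences below 0 were -0.48 for Ndufaf2 (-0.15 and 0.34), -0.30 for Ndufa5 (-0.17 and 0.13), -0.25 for Atp5g3 (-0.15 and 0.10), -0.24 for Atp5md (-0.32 and -0.08), -0.20 for Ndufa4 (-0.18 and 0.02) and -0.20 for Atp5g1 (-0.22 and -0.03). The differences above 0 were 0.20 for Atp5g2 (0.40 and 0.20), 0.24 for Ndufa2 (0.40 and 0.16), 0.28 for Ndufb11 (0.26 and -0.02), 0.45 for Sdhc (0.31 and -0.14) and 0.59 for Ndufaf3 (0.51 and -0.08). The edgeR adjusted p-values ran between 0.0026 and 0.0377. The other 3 called members were Ndufa13 at 0.22, Atp5j at -0.18 and Atp5k at -0.22. Without the library as a block, edgeR called 0 of the members. The calls above 0 numbered 6, but 1 with DESeq2, 1 with a gate of 5 UMIs and 2 by library totals.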

How the results depend on the processing

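Without the replicate block the members called numbered 18 in place of 42 for Gad1/Gad2 minus Neurod2/Neurod6 cells and 27 in place of 47 for dividing cells on average. In dividing Gad1/Gad2, Aqp4 and Pdgfra cells they numbered 11, 12 and 8 in place of 31, 40 and 39, and 0 in place of 14 for the difference between lineages. The block moved no other count by over 1.5 times. With DESeq2, 24 members were called in dividing Aqp4 cells and 25 in dividing Pdgfra cells. A gate of 5 UMIs gave 53 in dividing Gad1/Gad2 cells, 16 in dividing Aqp4 cells and 24 for the difference between lineages, and cells of 5000 to 15000 UMIs gave 56 and 12 in dividing Gad1/Gad2 and Aqp4 cells. Library totals gave 48 in dividing Gad1/Gad2 cells and 23 for the difference. Marker lists as gates gave 35 in place of 58 for C1qa cells, of which this gate keeps 11 and 21 in place of 90 and 96. It asks that a class's own list give at least 80% of the UMIs of all class lists. In C1qa cells of the main gate the 8 microglial markers summed to 23006 and 20826 CPM. The 8 astroglial markers summed to more there, at 26553 and 21315 CPM, so few C1qa cells can pass. The cause of the smaller count of calls was not tested. Over all alternatives, neurons minus macroglia kept 58 to 74 calls and Aqp4 minus Pdgfra cells 52 to 78. The summed subunits of C1qa cells were 28146 CPM with marker lists, 24349 in the depth window and 24815 with cells holding Top2a, Ube2c or Cdk1 removed. With 1 library at a time, which allows no test, the sums ran between 25703 and 26004 CPM in C1qa cells, 29401 and 31378 in Gad1/Gad2, 27861 and 29590 in Neurod2/Neurod6, 32241 and 33970 in Aqp4, 30515 and 32748 in Pdgfra and 29962 and 32897 in Mki67 cells. Of 1812 alternatives of the 151 called gene values, 1557 kept direction and call, 234 lost the call and 21 changed sign. By library totals, values of the other sign were, for Aqp4 minus Pdgfra cells Cox6b1 -0.14, Cox7a2 -0.078, Ndufv1 -0.050, Sdhb -0.11 and Cox5b -0.10, for C1qa minus neural cells Cox6b1 -0.23, Cox8a -0.12, Atp5g3 -0.23, Sdha -0.25, Sdhb -0.33, Cox5a -0.11, Cox5b -0.22, Atp5a1 -0.10 and Atp5b -0.27. With marker lists as gates, values of the other sign were, for Aqp4 minus Pdgfra cells Cox6b1 -0.072, Sdhb -0.017 and Cox5b -0.039, for C1qa minus neural cells Cox7a1 -0.078. With a gate of 5 UMIs, values of the other sign were, for mean dividing cells Cox8a -0.0084, Atp5g1 -0.10, Sdhb -0.12, Cox5b -0.13 and Atp5a1 -0.088, for dividing Aqp4 cells Cox8a -0.0035, for dividing Gad1/Gad2 cells Cox5a -0.20. In cells of 5000 to 15000 UMIs, values of the other sign were, for C1qa minus neural cells Atp5g3 -0.046 and Atp5b -0.0048, for mean dividing cells Atp5g1 -0.19, Sdhb -0.13, Cox5a -0.0099, Cox5b -0.12 and Atp5a1 -0.11, for dividing Pdgfra cells Atp5g3 -0.013, for dividing Aqp4 cells Atp5g1 -0.010, for dividing Gad1/Gad2 cells Cox5a -0.28. Depth limits the low isoforms: 5 and 11 Cox7a1 UMIs were counted in C1qa cells.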
